A study of Mus musculus with 59 samples.

Results

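The genes described here are the 33 rows of the count table whose symbol is Mrps followed by a number, or is Dap3, Ptcd3, Chchd1 or Aurkaip1, out of 57180 gene rows. They stand for the protein part of the mitochondrial ribosome small subunit. Of the 33, 16 encode proteins with a bacterial counterpart and 14 encode proteins grouped here as particular to mitochondrial ribosomes (mitochondria-specific). Mrps18b was counted among the 14, although it descends from the same bacterial protein as its paralogs Mrps18a and Mrps18c. The remaining 3 bear an Mrps symbol but act elsewhere: Mrps18a and Mrps30 encode proteins of the large subunit, and Mrps36 encodes a component of the 2-oxoglutarate dehydrogenase complex. All 33 passed the filter on low counts in both tissues.

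The mitochondrial ribosome translates the messenger RNAs of the mitochondrial genome, which encode core subunits of the respiratory chain. Its small subunit binds the messenger and holds the decoding centre, built from the small mitochondrial ribosomal RNA (mt-Rnr1) and nuclear-encoded proteins imported from the cytosol. The brain depends heavily on respiration, and loss of small subunit proteins in people causes inherited mitochondrial disease. The RNA of the particle could not be followed, because the mt-Rnr1 row and the other rows of mitochondrial genes, 37 in all, were listed at 0 in each library.

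Poly(A) RNA of brain cortex and hippocampus from 30 male mice was sequenced in 59 libraries. The mice were wild type, heterozygous for Slc25a1 (the mitochondrial citrate carrier), heterozygous for Mrpl40 (a large subunit protein of the same ribosome), or heterozygous for both, here called double het. Cortex had 9 wild type animals and 7 of each heterozygous genotype, and hippocampus 8 and 7. Both genes lie in the mouse counterpart of the region lost in the human microdeletion that the series title names, and the title asks about a suppressive interaction between them. Nothing in the sources used here gives age, background strain or the kind of allele. Library and animal numbers run in genotype order, so an effect of that order and the genotype cannot be told apart.

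Library totals ranged from 21443017 to 32120906 counts. The targeted genes were examined to check the labels. Slc25a1 fell into separate low and high levels, and in 6 animals the level went against the label in both tissues (wild type replicates 6 and 7, Slc25a1 het replicates 3 and 4, double het replicates 5 and 6, hereafter the 6 doubtful animals). In cortex the 10 other labelled carriers lay between 10.8 and 13.1 CPM (counts scaled to a common library size), and the 14 other animals labelled as not carrying the allele between 21.8 and 26.3 CPM. Mrpl40 was not lower in its labelled carriers: mean levels in cortex were 17.9 ± 1.56 CPM over 9 wild type libraries (SD), 17.4 ± 1.58 over the 7 of Mrpl40 het and 17.5 ± 1.45 over the 7 of double het. Which part of Mrpl40 the allele removes is not stated. One hippocampus library, Slc25a1 het replicate 3, stood apart with 756 CPM over cerebellum markers against a median of 104 over hippocampus libraries. Another pair stood apart in choroid plexus markers (median 34.4 CPM), namely double het replicate 6, the highest, and Mrpl40 het replicate 5 at 82.8 CPM. The latter also had the highest sum of neuron markers (9895 CPM) and the lowest of cortex markers (623 CPM) in hippocampus. Without these 2 libraries 0 members passed in the hippocampus genotype comparisons, and without their animals 22 passed between tissues, as with them.

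Upstream sequence is shown for 3 members on which the tissue comparison turns, in RefSeq's GRCm38.p6 assembly. Mrps12 fell most in hippocampus and shares its upstream stretch with Sars2, the mitochondrial seryl-tRNA synthetase, which is transcribed the other way. Its 135 bases reach from the Mrps12 start to the nearest Sars2 start (chr7:28741822-28741956, minus strand). For Mrps22 (chr9:98601680-98601929, minus strand) and Mrps9 (chr1:42850983-42851232, plus strand), which rose most, the 250 bases before the start are shown. Capitals mark the letters CCGGAAG, the core that ETS factors such as GABP are known to read.
Mrps12: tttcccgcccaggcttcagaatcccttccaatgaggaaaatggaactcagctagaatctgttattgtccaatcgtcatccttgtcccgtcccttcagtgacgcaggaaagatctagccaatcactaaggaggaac
Mrps22: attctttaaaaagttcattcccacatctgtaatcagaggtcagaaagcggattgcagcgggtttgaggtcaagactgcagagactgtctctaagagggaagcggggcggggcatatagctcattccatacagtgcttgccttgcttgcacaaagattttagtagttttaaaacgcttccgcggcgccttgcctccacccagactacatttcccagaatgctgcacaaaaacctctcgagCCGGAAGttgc
Mrps9: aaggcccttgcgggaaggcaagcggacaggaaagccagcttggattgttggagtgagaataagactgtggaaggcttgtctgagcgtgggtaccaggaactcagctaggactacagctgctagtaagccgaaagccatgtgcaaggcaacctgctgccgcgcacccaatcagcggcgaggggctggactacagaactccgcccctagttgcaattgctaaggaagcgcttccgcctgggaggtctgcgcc

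The table of promoters held 28 of the 33 genes. In the 250 bases before the start, on either strand, the ETS letters CCGGAAG stood at 6 of the 28 genes (21.4%), namely Mrps16, Mrps18a, Mrps18c, Mrps22, Mrps26 and Mrps27, against 7.83% of 27025 genes. The YY1 letters AAGATGGC stood at Mrps11 and Mrps12 (7.14% against 1.83%). In Mrps12 that match lay beyond the Sars2 start and outside the stretch printed above. The NRF1 letters GCATGCGC stood at Mrps18b alone (3.57% against 2.56%), and the E-box CACGTG at Chchd1 and Mrps18c (7.14% against 6.86%). The 4 motifs were searched separately, and none contains another. These matches describe letters and were not tested.

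In wild type cortex, levels per kilobase of principal transcript spanned a wide range (mean ± SD, n = 9). Mrps21, a conserved protein of the small subunit platform, stood highest at 53.1 ± 3.28 CPM per kb. It was followed by Mrps18a at 39.4 ± 2.21, Mrps33 at 31.8 ± 2.81, Aurkaip1 at 31.1 ± 1.61 and Mrps15 at 29.7 ± 1.33 CPM per kb. Mrps33, Aurkaip1 and Mrps15 lay within one another's spread. The lowest were Mrps16 at 4.99 ± 0.49, Mrps35 at 4.57 ± 0.35 and Mrps25 at 4.36 ± 0.26 CPM per kb, with Mrps30 between the last pair and Mrps28 above them at 6.70 ± 0.43. Mrps16, Mrps35, Mrps30 and Mrps25 lay within about 1 SD of their neighbours, and so the order among them is not resolved.

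Hippocampus gave the same 5 leading genes, with Mrps21 at 47.8 ± 1.71 and Mrps18a at 34.6 ± 1.99 CPM per kb (n = 8), and the same 5 lowest, led from below by Mrps35 at 3.93 ± 0.18. The order rests on the length used. With merged exon length or coding length in place of the principal transcript, Mrps21 ranked from 1 to 3 of 33 in cortex and Mrps30 from 32 to 33. Mrps17, whose principal transcript is far longer than its coding part, moved between rank 1 and rank 19, and Mrps25 between 11 and 33.

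**Figure D1:**
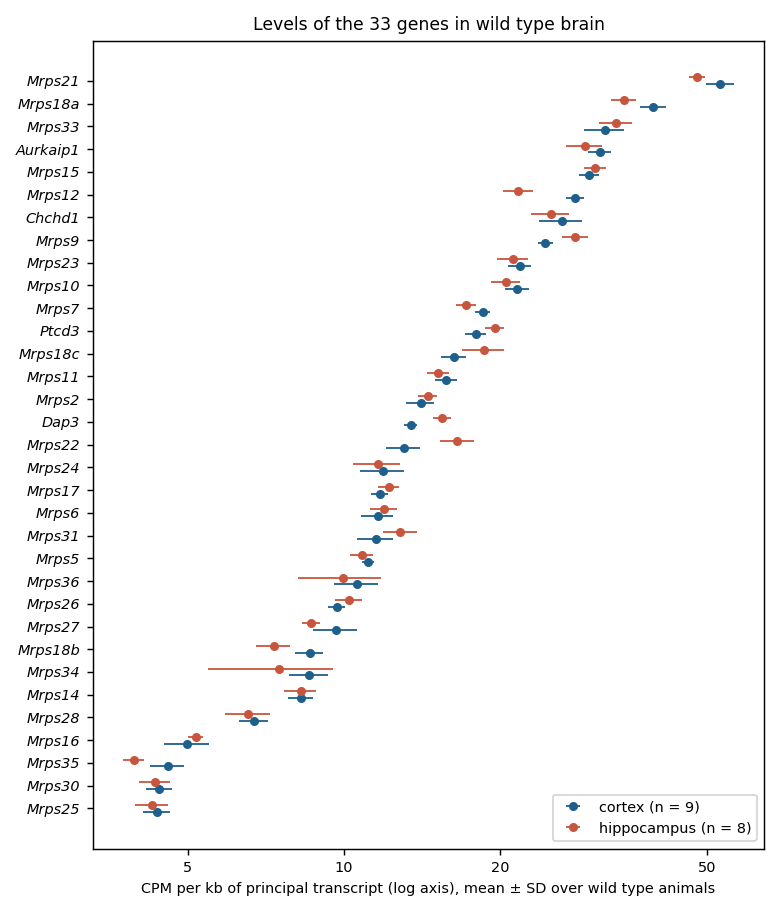
Level of each of the 33 genes in wild type animals, in CPM per kb of principal transcript on a log axis. Points are means and bars the SD over 9 cortex (blue) and 8 hippocampus (red) libraries, and genes are ordered by cortex. Mrps21 leads in both tissues and the range runs from 4.36 to 53.1 CPM per kb in cortex.

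Between tissues, part of the small subunit genes rose in hippocampus and part fell. Over the 4 genotypes, with the animal as a block in 29 animals, 22 of 33 members passed the test (edgeR quasi-likelihood test, Benjamini-Hochberg adjusted p under 0.05), 10 higher and 12 lower in hippocampus. The background is high: 77.5% of the 21354 genes tested passed, 39.8% higher and 37.7% lower. The members' count is therefore no larger a share than that of all genes. At an unadjusted p under 0.05 22 of 33 members stood against 78.6% of genes. Their median log2 difference was -0.023, against 0.012 over all genes. Of the 16 conserved proteins 4 were higher and 4 lower, and of the 14 mitochondria-specific ones 6 were higher and 6 lower.

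Mrps12, a conserved protein of the decoding centre, had the largest fall. Its level in cortex had a lowest value of 21.4, a median of 23.6 and a highest of 26.1 CPM over 30 libraries. In hippocampus these values were 16.6, 18.5 and 24.9 CPM over 29 libraries. Hippocampus was lower in 28 of 29 animals, although the tissues' ranges overlapped. The highest hippocampus value came from Mrpl40 het replicate 5, which stands apart in markers. The log2 difference was -0.32 ± 0.03 (SE, adjusted p = 4.39e-13). Sars2, which starts 172 bases away in GENCODE and faces away from Mrps12, fell by 0.28 ± 0.03 on the log2 scale (adjusted p = 1.79e-11) and was likewise lower in 28 of 29 animals.

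Next came Mrps35, a mitochondria-specific protein, with 16.4, 18.9 and 21.9 CPM (lowest, median, highest) in cortex and 14.9, 16.5 and 18.2 in hippocampus. It was lower in 28 of 29 animals, with a log2 difference of -0.20 ± 0.02 (adjusted p = 5.11e-09). Mrps36, the dehydrogenase component, differed by -0.17 ± 0.04 (adjusted p = 0.000451) and had -0.087 ± 0.078 in wild type alone (adjusted p = 0.347). Mrps10, a conserved protein of the subunit head, differed by -0.15 ± 0.02 (adjusted p = 6.53e-08) and was lower in 27 of 29 animals.

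The 3 Mrps18 paralogs, which descend from 1 bacterial protein and sit at different places of the ribosome, split by direction. Mrps18b (adjusted p = 6.87e-05) and the large subunit protein Mrps18a (adjusted p = 8.52e-07) differed by -0.14 ± 0.03 and -0.14 ± 0.02. Mrps18c rose by 0.16 ± 0.03 (adjusted p = 1.35e-05) and was higher in 24 of 29 animals. Its cortex values were 8.82, 10.1 and 11.1 CPM and its hippocampus values 8.89, 11.2 and 13.4 CPM (lowest, median, highest), which overlap widely.

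Among the genes that rose, Mrps22, a mitochondria-specific protein, led. Its cortex values were 13.9, 16.0 and 18.2 CPM and its hippocampus values 16.6, 18.5 and 22.3 CPM (lowest, median, highest). Hippocampus was higher in 28 of 29 animals, by 0.25 ± 0.02 (adjusted p = 8.33e-12). Mrps9, a conserved head protein that reaches towards the decoding centre, had cortex values of 32.3, 34.3 and 37.7 CPM and hippocampus values of 35.7, 39.1 and 45.2 CPM. It rose in 29 of 29 animals by 0.20 ± 0.02 (adjusted p = 6.67e-12).

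Dap3, a GTP-binding protein of the subunit head, had cortex values of 60.4, 64.5 and 69.0 CPM and hippocampus values of 66.1, 73.3 and 79.4 CPM. Like Mrps9 it was higher in 29 of 29 animals, by 0.17 ± 0.02 (adjusted p = 3.14e-12). Mrps26 rose by 0.12 ± 0.02 (adjusted p = 1.1e-06) and Mrps31 by 0.11 ± 0.03 (adjusted p = 0.000235). Both encode mitochondria-specific proteins.

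Mrps7, a conserved head protein, was among the smaller falls at -0.073 ± 0.019 (adjusted p = 0.000704), and with length and GC trends as offsets it was 0.0023 (adjusted p = 0.917), so its direction depends on that scaling. Mrps24 rose by 0.079 ± 0.033 (adjusted p = 0.0321), and with the 6 doubtful animals left out adjusted p was 0.08. Mrps30, with 11 of 29 animals higher in hippocampus, had -0.050 ± 0.027 (adjusted p = 0.089) and did not pass, but did with those animals left out (-0.069, adjusted p = 0.0396).

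Wild type animals alone gave 14 members past the test, 6 higher and 8 lower, against 60.6% of genes (30.4% higher, 30.1% lower). At an unadjusted p under 0.05 there were 17 members, against 63.9%. These 14 were among the 22 above, with the same sign. Mrps22 differed there by 0.34 ± 0.04 (adjusted p = 3.02e-08) and Mrps12 by -0.36 ± 0.05 (adjusted p = 2.41e-07). The set also held Dap3 (0.20), Mrps18c (0.20), Mrps9 (0.19), Mrps31 (0.15) and Ptcd3 (0.11) on the higher side, and Mrps35 (-0.22), Mrps18b (-0.22), Mrps18a (-0.18), Mrps27 (-0.15) and Mrps21 (-0.13) on the lower. Mrps27 and Mrps21 no longer passed with the 6 doubtful animals left out, at adjusted p = 0.129 and 0.0791.

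**Figure D2:**
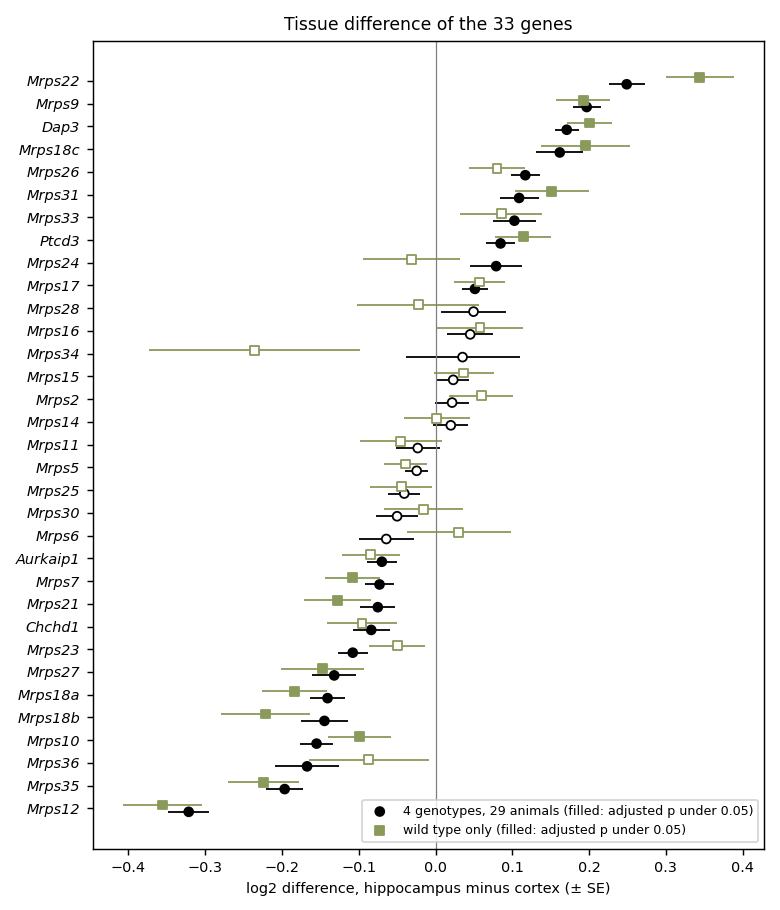
Log2 difference of hippocampus minus cortex for each of the 33 genes, with its SE. Black circles are the fit over 4 genotypes and 29 animals, green squares wild type alone, and filled symbols passed an adjusted p of 0.05. Genes run from Mrps12 at -0.32 to Mrps22 at 0.25 in the fit over 4 genotypes, and 11 of 33 open circles lie near 0.

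Markers of cell types differed between tissues. Region markers followed the labels: the summed level of 10 cortical genes was 1901 to 2540 CPM in cortex and 623 to 857 CPM in hippocampus. Of 10 neuron markers 8 were lower in hippocampus and 0 higher, with summed levels of 8986 to 10792 CPM in cortex and 6008 to 9895 CPM in hippocampus. Of 10 oligodendrocyte markers 6 were higher and 0 lower (1694 to 4251 against 2055 to 4869 CPM), and of 10 astrocyte markers 5 were higher and 2 lower (4509 to 5552 against 4825 to 7146 CPM). The part of these markers' differences in those of the members was not tested. In bulk tissue, fewer cells of a type and less RNA per cell cannot be told apart.

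Lists of related genes also held calls in both directions, but some lay mostly on 1 side. Over all genes 39.8% were higher and 37.7% lower. Of 50 large subunit genes, 18 were higher and 24 lower in hippocampus (median -0.024). Of 36 complex I subunit genes, 6 were higher and 18 lower (median -0.043), and of 88 cytosolic ribosomal protein genes 56 were higher and 6 lower (median 0.13). Among 14 factors that assemble the small subunit or modify its RNA, 4 were higher and 6 lower. The smallest p there belonged to Mettl15, a methyltransferase of the small ribosomal RNA, which rose by 0.63 ± 0.05 (adjusted p = 1.83e-13), and to Noa1, a GTPase, at 0.18 ± 0.03 (adjusted p = 9.1e-08). Of 11 mitochondrial translation factors 4 were higher, with Mtif2, an initiation factor, at 0.12 ± 0.02 (adjusted p = 1.6e-07), and 2 were lower, with Tufm, the elongation factor, at -0.13 ± 0.02 (adjusted p = 3.75e-06).

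For 7 members GENCODE places the start of another protein-coding gene, on the opposite strand, close upstream. In 3 pairs both genes passed the tissue test in the same direction. Over all genes 39.8% were higher and 37.7% lower, so unrelated genes also often pass in the same direction. The pairs were chosen after their values were seen, and whether a shared upstream stretch plays a part was not tested. Mrps12 and Sars2 are given above. Mrps27 and Ptcd2, 81 bases apart, both fell (-0.13 ± 0.03 and -0.16 ± 0.02). Ptcd3 and Polr1a, 303 bases apart, both rose (0.085 ± 0.019 and 0.26 ± 0.02).

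In 2 pairs the directions were opposite. Mrps18b fell while Ppp1r10, 45 bases away, rose by 0.097 ± 0.018 (adjusted p = 1.13e-05). Mrps18c rose while Helq, a DNA helicase gene 29 bases away, fell by 0.29 ± 0.04 on the log2 scale (adjusted p = 4.78e-09). For Mrps5 with Zfp661 and Mrps34 with Eme2, the partner rose (0.25 ± 0.03 and 0.40 ± 0.03) and the member did not pass (-0.025 ± 0.015 and 0.035 ± 0.074). With length and GC trends as offsets Mrps5 passed at -0.043 (adjusted p = 0.0102).

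No member passed the test in any comparison of genotypes. In cortex, Slc25a1 het against wild type gave 0 of 33 members (0% of 20394 genes passed) and Mrpl40 het gave 0 (0.0294%). Double het against wild type gave 0 (0.0686%), double het against Slc25a1 het 0 (0.0588%) and double het against Mrpl40 het 0 (0.0049%). At an unadjusted p under 0.05 these comparisons held 5, 5, 5, 0 and 3 members, where 3.17%, 6.94%, 10.9%, 9.92% and 6.94% of genes passed. DESeq2 called 0, 0, 1, 0 and 0, the 1 being Mrps26.

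In hippocampus, Slc25a1 het gave 0 of 33 members (0% of 20162 genes), Mrpl40 het 0 (0.00496%) and double het 0 (0.00992%). Double het gave 0 against Slc25a1 het (0%) and 0 against Mrpl40 het (0%). At an unadjusted p under 0.05 there were 7, 1, 4, 5 and 2 members, where 7.77%, 8.19%, 5.28%, 9.04% and 4.68% of genes passed. DESeq2 called 0 in each of these 5.

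Mrps26 came nearest to a call. Its cortex level was 38.9, 41.6 and 44.5 CPM (lowest, median, highest) in the 9 wild type libraries. In double het it was 35.8, 37.0 and 38.3 CPM over 7 libraries, so that each double het library lay below each wild type library. No other member had groups that do not overlap in this direction, which held for 0.0736% of all genes. Slc25a1 het (37.3, 38.5 and 41.6 CPM) and Mrpl40 het (35.2, 37.8 and 42.5 CPM) overlapped with wild type.

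The log2 difference of Mrps26 in cortex double het was -0.17 ± 0.04 (adjusted p = 0.0544, edgeR), just outside the threshold. It was -0.099 ± 0.036 in Slc25a1 het (adjusted p = 1) and -0.11 ± 0.04 in Mrpl40 het (adjusted p = 0.528). The comparisons share the wild type libraries. In hippocampus the wild type values were 38.3, 44.6 and 46.6 CPM and the double het values 38.5, 42.1 and 45.5 CPM, which overlap almost throughout.

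Mrps24, a conserved protein near the messenger's entry, had 9.28, 11.9 and 13.5 CPM in wild type cortex. Slc25a1 het held 8.19, 10.4 and 12.3 CPM. Mrpl40 het held 8.89, 9.92 and 11.6 CPM, and double het 7.99, 9.61 and 11.9 CPM. Groups overlapped, and the wild type minimum was 1 library, replicate 8, that stood apart. The log2 difference of double het from wild type was -0.28 ± 0.08 (adjusted p = 0.169). Slc25a1 het had -0.21 ± 0.08 (adjusted p = 1) and Mrpl40 het -0.23 ± 0.08 (adjusted p = 0.579).

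Mrps7 was the most even member in cortex and lay below 0 in each heterozygous genotype there, without passing the test. Wild type cortex held 34.8, 36.5 and 38.7 CPM and Slc25a1 het 32.7, 34.1 and 35.4 CPM. Mrpl40 het held 32.4, 34.3 and 37.2 CPM and double het 33.5, 34.6 and 36.0 CPM. The heterozygous groups sat low within or just under the wild type range. Log2 differences were -0.095 ± 0.032 (adjusted p = 1), -0.071 ± 0.032 (adjusted p = 0.688) and -0.072 ± 0.032 (adjusted p = 0.387).

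The further members with the smallest p in cortex against wild type did not pass either. In Slc25a1 het these were Mrps12 (-0.097) and Mrps11 (-0.14), in Mrpl40 het Mrps34 (-0.51) and Mrps14 (-0.11), and in double het Ptcd3 (0.079) and Mrps34 (-0.48). Double het against Mrpl40 het listed Mrps10, Mrps14, Mrps6, Mrps15 and Ptcd3, with the smallest adjusted p = 0.67 by edgeR. Against Slc25a1 het the list was Mrps35, Mrps17, Mrps26, Mrps6 and Mrps14, with the smallest adjusted p = 0.512.

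In hippocampus Slc25a1 het the smallest p belonged to Mrps11 (-0.13 ± 0.05), Mrps23 (-0.12 ± 0.05), Mrps24 (-0.20 ± 0.08), Mrps26 (-0.12 ± 0.05) and Mrps18c (-0.14 ± 0.06), with adjusted p from 0.525 to 0.612 by edgeR. Of these, Mrps11, Mrps24 and Mrps26 were also listed for cortex Slc25a1 het. The hippocampus libraries come from animals that also gave cortex, so the lists are not independent. Mrpl40 het listed Mrps36 (-0.22 ± 0.11), Mrps10, Chchd1, Mrps16 and Mrps21, with adjusted p from 0.596. Double het listed Mrps18b (0.18 ± 0.06), Mrps18c (-0.17 ± 0.07), Mrps23, Mrps11 and Mrps22, with adjusted p from 0.761. Mrps18b and Mrps18c had opposite signs, each the reverse of its sign between tissues, and neither passed.

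Mrps18b in hippocampus held 6.83, 7.84 and 8.85 CPM in wild type and 8.14, 9.11 and 9.69 CPM in double het, so the upper wild type libraries overlap with double het. Double het against Slc25a1 het listed Mrps24 (0.20 ± 0.08), Mrps34 (0.53 ± 0.21), Mrps21, Mrps12 and Mrps2, and against Mrpl40 het Mrps18b (0.19 ± 0.06), Mrps11, Mrps18c, Mrps9 and Mrps22. The smallest adjusted p was 0.48 and 0.958, by edgeR.

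As a set, the members leaned below 0 in Slc25a1 het. In cortex 26 of 33 lay below 0, with a median of -0.056 and a median SE of 0.048, where 50.3% of all genes lay below 0. In hippocampus it was 28 of 33, with a median of -0.070, against 48.1% of genes. The median over all genes was within 0.01 of 0 in each genotype comparison. Large subunit genes had 42 of 50 and 43 of 50 below 0 (medians -0.031 and -0.058), and complex I genes 30 of 36 and 35 of 36 (medians -0.042 and -0.085), so the lean is not shown to be particular to the small subunit.

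Whether the lean differed between genotypes was not tested. In Mrpl40 het and double het, 23 and 20 of 33 lay below 0 in cortex (medians -0.036 and -0.033, against 51% and 51.4% of genes), and in hippocampus 19 and 20 (medians -0.017 and -0.033, against 52.9% and 51.4%). Large subunit genes, to which Mrpl40 belongs, had 37 and 28 of 50 below 0 in cortex and 24 and 36 of 50 in hippocampus. The hippocampus median of Mrpl40 het turned to 0.0085, with 14 members below 0, when the 6 doubtful animals were left out. Double het against the single genotypes had 11 and 13 of 33 below 0 in cortex (51.3% and 50.1% of genes) and 10 and 19 in hippocampus (53.4% and 49.9%). The median SE of a member in these comparisons was 0.048 to 0.051.

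**Figure D3:**
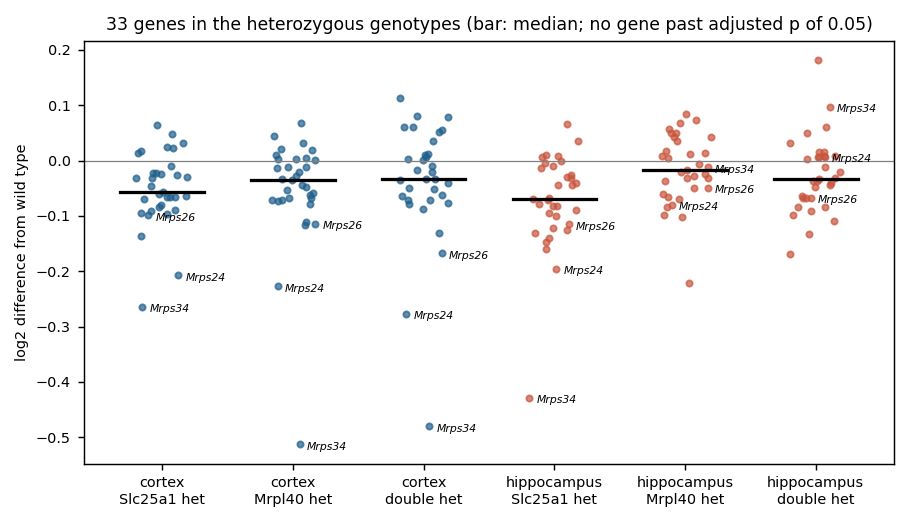
Log2 difference from wild type of each of the 33 genes in the 3 heterozygous genotypes, in cortex (blue) and hippocampus (red). Bars mark medians, from -0.070 to -0.017, and no gene passed an adjusted p of 0.05. Mrps34 lies lowest in the 3 cortex comparisons and in hippocampus Slc25a1 het.

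In the interaction, the log2 difference of double het less the sum of those of the single genotypes, 0 members passed in cortex (0% of genes) and 0 in hippocampus (0%). At an unadjusted p under 0.05 there were 4 and 2 members, against 5.35% and 3.39% of genes, and DESeq2 called 0 and 0. Values lay above 0 for 29 of 33 members in cortex (median 0.045) and 28 of 33 in hippocampus (median 0.035), where 49.4% and 50.6% of genes lay below 0. The wild type libraries enter these values with the opposite sign to the single effects, so their direction is no separate evidence. With the 6 doubtful animals left out, 26 and 20 members lay above 0, with medians of 0.051 and 0.0097.

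The smallest p in the cortex interaction belonged to Mrps14 (0.21 ± 0.08), Mrps17 (0.11 ± 0.05), Mrps11 (0.20 ± 0.09), Mrps10 (-0.13 ± 0.06) and Mrps7 (0.094 ± 0.047), with adjusted p from 0.82 to 0.927 by edgeR. In hippocampus these were Mrps24 (0.28 ± 0.11), Mrps10 (0.16 ± 0.07), Mrps34 (0.54 ± 0.29), Mrps36 (0.25 ± 0.15) and Mrps26 (0.096 ± 0.066), with adjusted p of 0.999. Mrps10 had opposite signs in the 2 tissues.

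The difference of each genotype effect between tissues was also fitted. It gave 0 members for Slc25a1 het (0% of 21354 genes), 0 for Mrpl40 het (0%) and 0 for double het (0.0234%), with 2, 2 and 3 members at an unadjusted p under 0.05, where 6%, 5.83% and 5.03% of genes passed, and 0 by DESeq2 in each. Mrps34 had the smallest p in the last 2, at 0.58 ± 0.20 (adjusted p = 0.829) and 0.65 ± 0.20 (adjusted p = 0.707). For Slc25a1 het the list was Mrps2 (-0.15 ± 0.06), Mrps22, Mrps10, Mrps23 and Mrps6. The Mrpl40 het list went on with Mrps10, Mrps18a, Mrps33 and Mrps36, and that of double het with Mrps24 (0.28 ± 0.09), Mrps22, Mrps18b and Mrps6.

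Among related lists, only that of cytosolic ribosomal protein genes held calls against wild type. Against wild type, 0 of 50 large subunit genes, 0 of 36 complex I genes, 0 of 14 assembly factors and 0 of 11 translation factors passed in either tissue and any genotype by edgeR. Of 88 cytosolic ribosomal protein genes, 2 passed, both lower in cortex double het, where 0.0686% of all genes passed. Among assembly factors the smallest p in cortex belonged to Mpv17l2, which is known to act in mitochondrial ribosome assembly, at -0.23 ± 0.07 in double het (adjusted p = 0.186), beside -0.17 ± 0.07 for Slc25a1 het and -0.15 ± 0.07 for Mrpl40 het. In hippocampus Slc25a1 het it belonged to Rbfa, a maturation factor of the small ribosomal RNA, at -0.32 ± 0.08 (adjusted p = 0.398).

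Mrps34, a mitochondria-specific protein needed for a stable small subunit, varied more between animals than any other member. Over the 4 groups of a tissue its coefficient of variation (CV) was 30.2% in cortex and 29.5% in hippocampus, where counting error alone gives 7.7% and 7.6%. The median CV of the 33 members was 6.73% and 6.34%. The genes next to it in cortex, Mrps24 and Mrps36, had 11.9% and 10.8%, and Mrps7 and Dap3 stood lowest at 3.3% and 3.4%.

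Wild type animals alone ordered the members somewhat otherwise. In cortex Mrps16 (9.92%), Mrps36 (9.86%) and Mrps27 (9.84%) had the largest CV and Mrps5 (2.5%), Dap3 (2.73%) and Mrps7 (3.21%) the smallest. In hippocampus Mrps34 (27.0%), Mrps36 (18.4%) and Mrps24 (10.2%) were at the top and Mrps16 (3.2%), Mrps21 (3.6%) and Mrps27 (4.0%) at the bottom. Mrps16 and Mrps27 thus stood at opposite ends in the 2 tissues. Their hippocampus values, however, lay below the counting error over the 4 groups of that tissue (5.4% and 4.8%). The contrast between tissues is therefore not shown to be one of spread between animals.

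The wide spread of Mrps34 in cortex lay in the heterozygous groups. Wild type held 6.88, 7.65 and 9.03 CPM (lowest, median, highest), with an SD of 0.67 CPM. Slc25a1 het held 3.49, 6.79 and 8.67 CPM, Mrpl40 het 3.17, 5.41 and 7.96 CPM, and double het 3.51, 5.53 and 9.00 CPM, with SDs of 1.99, 2.07 and 2.02 CPM. Each of these 3 groups holds libraries within the wild type range beside libraries well under it. In Slc25a1 het the lowest library, replicate 5, stood alone at 3.49 CPM, with the next at 4.93 CPM.

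In hippocampus wild type itself was wide, with 4.53, 6.89 and 9.86 CPM. Slc25a1 het ran from 2.69 through 4.73 to 9.15 CPM, Mrpl40 het from 5.00 through 6.65 to 10.9 CPM, and double het from 5.57 through 7.77 to 8.74 CPM. Counts behind these values were 82 to 263 per library in hippocampus and 92 to 259 in cortex. The log2 differences from wild type were -0.26 ± 0.21 (adjusted p = 1), -0.51 ± 0.21 (adjusted p = 0.663) and -0.48 ± 0.21 (adjusted p = 0.392) in cortex. None of the 3 passed the test once p was adjusted over all genes tested. Over the alternatives run, the cortex double het value ranged from -0.55 to -0.27.

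**Figure D4:**
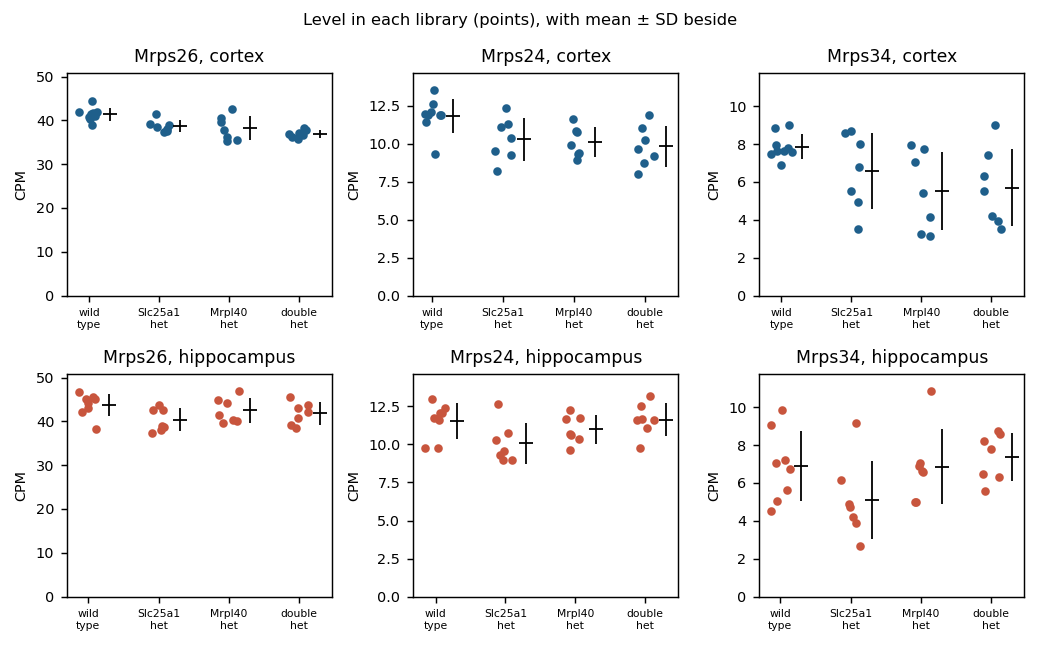
CPM of Mrps26, Mrps24 and Mrps34 in each library, by genotype, in cortex (top, blue) and hippocampus (bottom, red). Points are libraries and the bars beside them the mean ± SD. Mrps26 double het libraries in cortex lie between 35.8 and 38.3 CPM, all below wild type, and Mrps34 ranges from 2.69 to 10.9 CPM.

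The level of Mrps34 in an animal's cortex went with that in its hippocampus. On log2(CPM + 0.5) minus the group mean, Pearson's r was 0.51 over 29 animals (permutation p = 0.00431) and Spearman's rho 0.58 (permutation p = 0.00123). Without the 2 animals farthest from the median in cortex r was 0.46. Adjusted over the Pearson and Spearman p-values of 4 relations, the p-values were 0.00575 and 0.00197. Those relations include the pair of Mrps34 with Mrps24, chosen for its values, which makes the adjustment too mild. Mrps34 also had the largest r of the 33 members, and the adjustment does not cover that choice. Genes in general had a median r of 0.12 between the tissues, and 4.65% of 15543 genes lay above Mrps34. The 33 members had a median r of 0.11, and 25 were above 0. The relation was noticed in these data before it was tested. Libraries of both tissues are numbered in the same order of animals, so an effect of that order and one of the animal cannot be told apart.

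**Figure D5:**
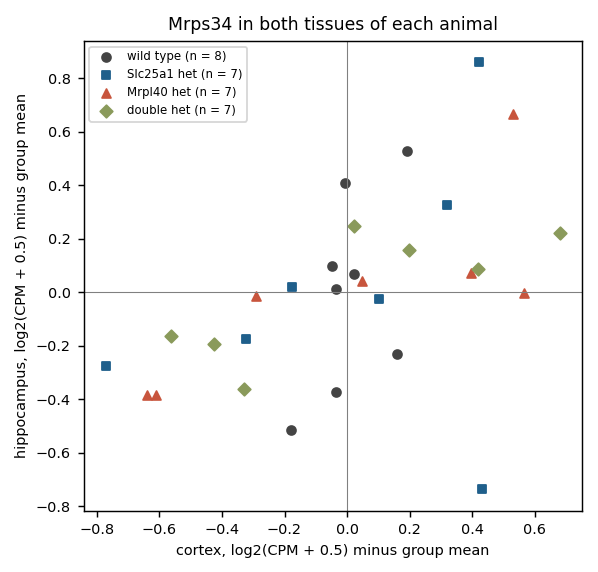
Deviation of Mrps34 from its group mean, log2(CPM + 0.5), in cortex (x axis) and hippocampus (y axis) of the same animal, 1 point for each of 29 animals and 1 symbol for each genotype. Points run from lower left to upper right (Pearson's r = 0.51), with 1 Slc25a1 het animal far to the lower right.

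Mrps24 and Mrps34 had the largest r of the 528 pairs of members in hippocampus, and the pair was chosen after these values were seen, so they are a description with no p. In hippocampus r was 0.74 and rho 0.72 over 29 libraries, with r = 0.68 without the 2 farthest. In cortex r was 0.58 and rho 0.60 over 30 libraries, with r = 0.44 without the 2 farthest. The libraries share depth and normalization. Between the tissues of an animal, Mrps24 itself had r = 0.42 (n = 29, permutation p = 0.0231) and rho = 0.35 (permutation p = 0.0647). Its r ranked 2 among the members, and the adjusted permutation p of 0.0264 has the same limits as for Mrps34. Without the 2 farthest animals r was 0.27, so this relation rests on them. Of all genes, 10.1% lay above its r.

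The members otherwise moved little together. Over 528 pairs the median r between members was 0.16 in cortex and 0.098 in hippocampus, from -0.57 to 0.64 and from -0.54 to 0.74. The pair with the largest r in cortex was Mrps6 and Mrps14. These values are descriptions.

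Several members share exons or sequence with other genes, and no strand setting of the counting is stated. Mrps34 (GRCm38, chr17:24895116-24897502, plus strand) shares 763 exon bases with Nme3 on its own strand, 37% of its exon bases, and 63.4% of them with Mapk8ip3 on the opposite strand. Nme3 was listed at 0 in the 59 libraries. Mrps25 shares 69.8% of its exon bases with Nr2c2 on the opposite strand, and Mrps24 shares 15.4% with Urgcp on the same strand. The highest GC content of a member's longest transcript, 59.9%, belonged to Mrps34.

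Mrps36 has a processed pseudogene, Mrps36-ps1, that is 99.3% identical over 306 bases. Its level of 5.68 to 8.18 CPM in cortex was close to the 5.70 to 8.40 CPM of Mrps36 itself, so their reads may have been divided between them. It fell in hippocampus by 0.16 ± 0.04 on the log2 scale (adjusted p = 0.00024), beside -0.17 ± 0.04 for Mrps36. Pseudogenes of at least 95% identity over at least 250 bases were also found for Mrps5, Mrps10, Mrps16, Mrps18b, Mrps21, Mrps25, Mrps26 and Mrps33. Values of these members are uncertain to that extent.

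The summed level of the 30 small subunit proteins overlapped between genotypes. Cortex held 783 ± 16.9 CPM over 9 wild type libraries (SD). The 7 libraries of Slc25a1 het held 762 ± 24.4, of Mrpl40 het 762 ± 20.2 and of double het 774 ± 12.4 CPM. Hippocampus held 792 ± 22.5 (n = 8), 761 ± 10.1, 792 ± 19.7 and 779 ± 17.0 CPM. The ranges overlap, with cortex wild type at 754 to 806 CPM and cortex Slc25a1 het at 719 to 797 CPM. In hippocampus that overlap was narrow, with wild type at 761 to 840 CPM and Slc25a1 het at 743 to 769 CPM. The highest Slc25a1 het library there lay below the wild type median of 789 CPM. Hippocampus Mrpl40 het (769 to 819 CPM) and double het (745 to 794 CPM) overlapped more with wild type. No test was made on the sum.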

How the data were processed

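The values used were raw counts per gene that the authors deposited. HISAT2, featureCounts and DESeq2 and the build GRCm39 (mm39) are named in the submitters' processing notes, without roles, versions or an annotation. Libraries were directional and poly(A)-selected, per the labels' protocols. Groups came from the labels. The members and lists were chosen with earlier results of these data known. Replicates are separate animals, per the labels.

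Counts were tested with edgeR 4.0.16 (TMM, its filter on low counts, robust quasi-likelihood) in R 4.3.3, fitting the 4 genotypes jointly within each tissue, at a Benjamini-Hochberg false discovery rate of 0.05 over all genes tested. Tissues were compared with the animal as a block over 29 animals, since both tissues came from the same animals (correlation of deviations over 5000 genes: median 0.12 within animals, -0.008 between). CPM used TMM over the 59 libraries. Log2 values for relations used an offset of 0.5 CPM. Alternatives were DESeq2 1.42.0, its size factors, no filter, length and GC offsets, fewer genotypes, blocks, and leaving out doubtful libraries (the choroid plexus rule, over 2 times the median, was added after seeing the data). The step was tested on simulated counts.

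Gene positions, lengths and GC were read from GENCODE vM21 (GRCm38) by gene ID, another build than the authors', with lengths for 33 of 33 members. Promoters came from RefSeq (GRCm38.p6) by symbol. Named members were those past the test, or the 5 smallest p. For tissues these were the 6 largest rises and falls, for levels the 5 highest and lowest, for spread the 3 largest and smallest. Mrps7, Mrps24, the Mrps18 genes, Mrps30 and Mrps36 were named always, and Mrps34, its pairing with Mrps24 and the partner genes were chosen after their values were seen. The deposited normalized values were not used. Rows with a gene ID but a blank symbol (7074) stayed in the tests. The counting error given in the text covers depth alone, and the SD and SE also hold the spread between animals.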

Additional observations from a re-analysis of the deposited data

Results flagged for a closer look

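In groups of 7 to 9 libraries, a highest or lowest library stood apart from the rest of its group by Dixon's criterion in 19 of 264 combinations of member and group (7.2%), where chance gives about 1 in 20. None of these was explained or left out.

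In cortex the libraries above their group were Mrps10 in Mrpl40 het replicate 1 (25.8 CPM, others up to 23.3), Mrps11 in Slc25a1 het replicate 4 (18.2, up to 15.2), Mrps26 in Slc25a1 het replicate 2 (41.6, up to 39.1), and Mrps21 in wild type replicate 1 (29.3, up to 26.4) and Mrpl40 het replicate 2 (27.9, up to 25.0). Those below were Mrps10 in wild type replicate 1 (19.1 CPM, others from 21.2), Mrps24 in wild type replicate 8 (9.28, from 11.4) and Mrps6 in Slc25a1 het replicate 2 (7.74, from 9.68).

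In hippocampus Mrpl40 het, replicate 5 stood above its group in 3 members: Mrps6 (12.7 CPM, others up to 9.79), Mrps12 (24.9, up to 20.2) and Mrps27 (20.0, up to 17.1). This library also had summed neuron markers of 9895 CPM against 6970 to 8750 CPM in the others of its group, and choroid plexus markers of 82.8 CPM against up to 54.5 CPM. The part of these in its member values was not tested. In the same group Mrps34 stood out in replicate 1 (10.9, up to 7.03) and Mrps10 in replicate 2 (22.1, up to 19.9). Further high values were Mrps14 in wild type replicate 6 (28.4, up to 25.4), Mrps16 in Slc25a1 het replicate 5 (13.9, up to 12.8) and Mrps22 in Slc25a1 het replicate 6 (22.2, up to 19.0). Low values were Mrps2 in double het replicate 1 (26.8, others from 30.0), Mrps7 in double het replicate 2 (29.4, from 32.2) and Mrps28 in Slc25a1 het replicate 5 (3.99, from 4.89).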

How the results depend on the processing

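Of 17 counts of members past the test, 16 were unchanged within 1.5 times under the alternatives run. The count for cortex double het against wild type went from 0 to 1 with the DESeq2 Wald test and to 1 with only the genotypes compared in the fit. That member was Mrps26, whose adjusted p ranged from 0.011 (DESeq2) to 0.366 (with the 6 doubtful animals left out, which leaves 5 double het and 7 wild type animals). Under the alternatives run the medians moved by less than the SD between libraries of a group in the small subunit's mean log2 level. That yardstick is wide, since some medians crossed 0 within it. They were hippocampus Mrpl40 het (0.0029 with length and GC offsets, 0.0085 without the 6 doubtful animals) and both tissue comparisons (0.0075 and 0.012 with the offsets). In the wild type tissue comparison Mrps31 and Ptcd3 no longer passed with length and GC offsets (adjusted p = 0.0564 and 0.0511). Among the 109 values of named members recomputed, 2 changed sign: Mrps7 between tissues with length and GC offsets (0.0023), and Mrps34 in hippocampus double het with the replicate block (-0.0097, from 0.097). Between tissues over the 4 genotypes, Mrps24 lost its call without the animal block (adjusted p = 0.0859) and Mrps30 gained one with the offsets (adjusted p = 0.0271). Leaving out the 2 libraries with high choroid plexus markers, chosen after seeing the data, changed no count, and put 22 and 24 of 33 members below 0 in hippocampus Mrpl40 het and double het. The replicate block over genotypes joins different animals that share a number: same-numbered libraries had a median correlation of 0.12 in cortex and 0.061 in hippocampus, 30% and 13.8% correlated best with their own number, and the block gave 0 members in the 12 genotype comparisons, as without it. Without the animal as a block, 21 and 14 members passed in the tissue comparisons. Counting error at this depth was 7.7% for Mrps34 in cortex and 8.6% for Mrps28. DESeq2 called 22 and 13 members in the tissue comparisons. The causes were not tested.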

Other observations

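The genes outside the set whose deviations from the group mean were most like those of Mrps34 in both tissues were Scand1 (r = 0.91 in cortex over 30 libraries and 0.86 in hippocampus over 29), Pcsk1n (0.89 and 0.84), Zfp771 (0.84 and 0.87) and Cox5a (0.84 and 0.83). They were chosen for these values among 15543 genes with a mean of at least 1 CPM in each tissue, so no test is given, and the libraries share depth and normalization. Mrps24 ranked 38 by the smaller of its 2 values and was the nearest member, and the next, Mrps33, ranked 740. The 10 nearest genes had a median GC content of 62.1%, against 49.5% over the genes compared.

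Scand1 itself held 2.67, 5.21 and 7.28 CPM (lowest, median, highest) in wild type cortex and 1.11, 1.90 and 5.50 CPM in double het cortex, and the fitted log2 difference was -1.09 ± 0.36 (edgeR, adjusted p = 0.246). In hippocampus double het it had 0.59 ± 0.35 (edgeR, adjusted p = 0.989). The fitted sign differed between the tissues here and for Mrps34 (-0.48 and 0.10), but none of these values passed the test. With the replicate block the hippocampus value of Mrps34 turned to -0.0097.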
